A study of Mus musculus with 2 samples.

Results

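The genes described here are 5 mouse genes of the bone morphogenetic protein (BMP) pathway, Bmp4, Id1, Id2, Id3 and Smad6, chosen by name because BMP signalling is known to hold ESCs back from neural fate. The choice was made with earlier results of these data known. All open regions (ATAC-seq peaks) whose middle lay in one of these genes or within 50 kb on either side were taken, which gave 56 of the 71914 peaks listed for WT cells and 32 of the 61640 peaks listed for Uhrf1 KO cells. ATAC-seq marks DNA that nucleosomes leave open, because the Tn5 transposase inserts sequencing adapters there. The WT cells were undifferentiated E14 mouse ESCs, and the Uhrf1 KO cells were undifferentiated E14 ESCs that lack Uhrf1, a protein that guides maintenance of DNA methylation after replication. Both were grown in serum with leukemia inhibitory factor (LIF) on gelatin or on feeder fibroblasts, and how many clones the KO line represents is not given in the sources used here. There was 1 library per genotype, so the values compare libraries, not conditions, and no test between the genotypes was made.

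BMP ligands such as Bmp4 bind receptor kinases that phosphorylate Smad1, Smad5 and Smad9, which enter the nucleus with Smad4. Id1, Id2 and Id3 are among their best known direct targets and encode helix-loop-helix proteins without a DNA-binding region, which hold back neural and other lineage-specifying helix-loop-helix factors. Smad6 is an inhibitory Smad that BMP signalling itself induces and that limits the response. In serum, BMP activity and LIF together are known to keep mouse ESCs undifferentiated.

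The deposited lists give the position of each peak and no read number, so the fragments behind a single peak are unknown. All peaks were 101 bp wide except 1 and the score was 1 for every peak, so neither tells how open a site was. A broad open region appears as several neighbouring peaks. Intervals are 95% exact intervals, which reflect counting error alone and treat neighbouring peaks as independent, which they are not. These were bulk libraries, in which a site open in fewer cells and a site less open in each cell cannot be told apart. The targeted gene, Uhrf1, had a promoter peak in both lists, with 23 WT and 15 KO peaks in its window. Since a peak can lie outside the deleted part, this does not check the genotype labels. All 6 of the ESC markers Pou5f1, Sox2, Nanog, Esrrb, Zfp42 and Tdgf1 had a peak within 2 kb of a transcription start site (TSS) in both lists. Among the 6 markers of feeder fibroblasts, Col1a1, Col1a2 and Thy1 had such a peak in both lists, and Col3a1, Twist2 and Postn had none in either. The part of feeder cells in the results was not tested.

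The sequences that the results turn on are shown first. Smad1 and Smad5 are known to bind the GC-rich letters GGCGCC, and the arrangement of GGCGCC followed after 5 bases by GTCT is known as a BMP response element that was worked out on Id genes. Its presence at Id genes is therefore not an independent observation. The search read both strands of the NCBIM37 genome, which is the mm9 build of the peak lists. Within 50 kb of the 5 genes it found 6 such elements, which follow with 40 bases on either side, read 5′ to 3′ on the strand of the gene, with the letters of the element in capitals. All 6 lie outside annotated exons.
Id1, downstream, chr2:152565167-152565261, plus strand: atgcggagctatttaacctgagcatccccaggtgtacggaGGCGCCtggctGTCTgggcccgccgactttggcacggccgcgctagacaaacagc
Id2, downstream, chr12:25777869-25777963, minus strand: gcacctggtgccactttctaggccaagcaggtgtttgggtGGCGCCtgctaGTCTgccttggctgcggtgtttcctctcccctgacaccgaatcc
Id2, upstream, chr12:25783679-25783773, minus strand: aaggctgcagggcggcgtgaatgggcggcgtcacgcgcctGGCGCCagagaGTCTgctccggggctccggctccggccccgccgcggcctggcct
Id3, upstream, chr4:135696415-135696509, plus strand: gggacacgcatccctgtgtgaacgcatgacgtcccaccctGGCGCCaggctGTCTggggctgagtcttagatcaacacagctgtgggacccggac
Id3, intron, chr4:135700668-135700762, plus strand: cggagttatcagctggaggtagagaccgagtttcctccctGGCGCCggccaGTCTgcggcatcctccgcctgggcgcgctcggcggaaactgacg
Id3, downstream, chr4:135703856-135703950, plus strand: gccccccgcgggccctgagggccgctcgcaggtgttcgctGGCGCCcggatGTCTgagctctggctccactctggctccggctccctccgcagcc

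Peaks just upstream of the starts of 4 of the genes are shown because the start is where the libraries differed in opposite directions at Bmp4 and Id1. Capitals mark CpG, the dinucleotide that DNA methylation acts on, and all are in mm9 and read on the strand of the gene. For Bmp4, only the part of the peak upstream of the start is given. Peaks that lie in an exon near the start, among them those of Id3 and others at Bmp4 and Smad6, are not shown.
Bmp4, WT peak without a KO peak, chr14:47010345-47010435, minus strand: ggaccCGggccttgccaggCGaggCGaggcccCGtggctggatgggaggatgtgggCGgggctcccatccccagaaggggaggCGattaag
Id1, KO peak without a WT peak, chr2:152561869-152561969, plus strand: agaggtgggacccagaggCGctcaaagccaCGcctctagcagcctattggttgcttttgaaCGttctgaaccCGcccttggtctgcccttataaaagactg
Id2, WT peak with a KO peak, chr12:25780988-25781088, minus strand: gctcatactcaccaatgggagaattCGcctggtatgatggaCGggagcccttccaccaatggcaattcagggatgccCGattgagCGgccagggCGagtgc
Smad6, WT peak with a KO peak, chr9:63869918-63870018, minus strand: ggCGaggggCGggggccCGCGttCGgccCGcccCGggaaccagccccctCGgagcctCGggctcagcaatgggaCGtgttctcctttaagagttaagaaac
The stretch at Bmp4 holds 6 CpGs in 91 bases. The peaks at Id1, Id2 and Smad6 hold 4, 5 and 10 CpGs in 101 bases. Among the peaks not shown, the WT peaks 12 and 330 bp downstream of the first TSS of Bmp4 hold 3 CpGs each. Neither of these has a KO peak.

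Fewer peaks were listed at each of the 5 genes in Uhrf1 KO than in WT. At Bmp4, 10 peaks were listed in WT (Poisson interval 4.8 to 18.4) and 5 in Uhrf1 KO (1.62 to 11.7). Id1 had 15 WT (8.4 to 24.7) and 8 KO peaks (3.45 to 15.8), and Id2 had 11 WT (5.49 to 19.7) and 3 KO peaks (0.619 to 8.77). The intervals of the 2 libraries overlap at each of these 3 genes. Id3 had 10 WT (4.8 to 18.4) and 7 KO peaks (2.81 to 14.4), and Smad6 had 10 WT (4.8 to 18.4) and 9 KO peaks (4.12 to 17.1), so the libraries were close at Smad6 and farthest apart at Id2. A lower KO than WT number was found at 56.7% of the 22380 protein-coding genes counted in the same way, so the direction alone is common. It held at Id1 and Id2 under each of 4 other ways of counting, and not at the other 3 genes: merging neighbouring peaks gave 6 WT and 7 KO regions at Smad6, the lower name numbers alone 2 WT and 3 KO peaks at Bmp4, and at Id3 the numbers were equal with 10 kb on each side (5 and 5) and for the peaks nearest to its own TSSs (4 and 4).

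**Figure D1:**
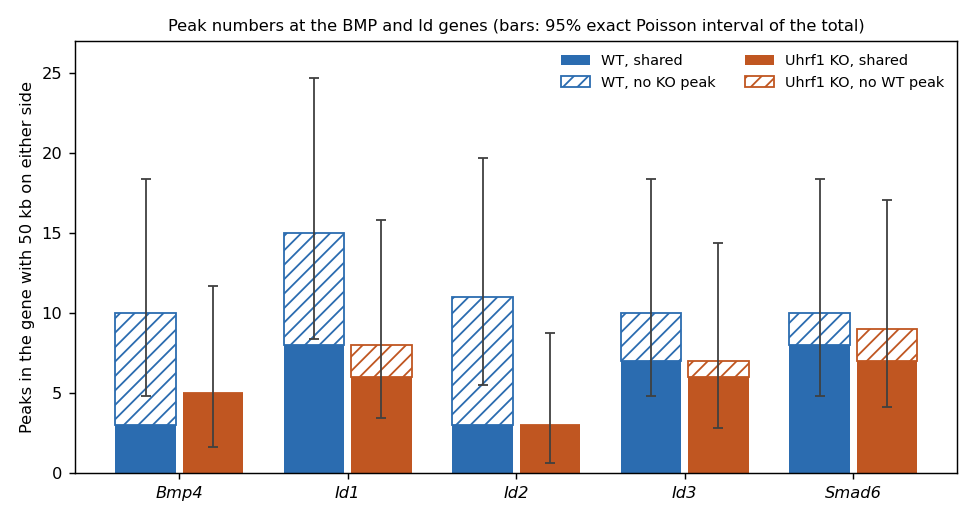
Number of ATAC-seq peaks (y axis) in each gene with 50 kb on either side, for the WT library (blue) and the Uhrf1 KO library (orange). Filled parts have a peak of the other library within 100 bp and hatched parts have none, and the bars are 95% exact Poisson intervals of the total. WT totals run from 10 to 15 and KO totals from 3 to 9.

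Over the 5 genes the sums were 56 in WT (42.3 to 72.7) and 32 in Uhrf1 KO (21.9 to 45.2), a KO to WT ratio of 0.571 (exact binomial interval 0.358 to 0.898). Over the same windows around all protein-coding genes, with a peak counted once for each gene, the ratio was 0.81. The ratio of the whole lists was 0.857, and both values lie inside the interval of the 5 genes. On the chromosomes that carry the genes it was 0.848 (chromosome 2, Id1), 0.842 (4, Id3), 0.852 (9, Smad6), 0.878 (12, Id2) and 0.924 (14, Bmp4), so none of these chromosomes had as low a ratio as the genes together. By gene the ratios were 0.5 for Bmp4 (0.134 to 1.61), 0.533 for Id1 (0.196 to 1.34), 0.273 for Id2 (0.0489 to 1.03), 0.7 for Id3 (0.226 to 2.04) and 0.9 for Smad6 (0.324 to 2.46). Each of these 5 intervals includes the ratio of the whole lists.

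Set among other genes, the WT numbers were above the middle and the KO numbers were spread out. Over the 22380 protein-coding genes the median was 7 WT and 5 KO peaks. Fewer WT peaks than at Id1 were found at 87% of genes, fewer than at Id2 at 72.7%, and fewer than at Bmp4, Id3 or Smad6 at 67.7%. In Uhrf1 KO, 67.3% of genes had fewer peaks than Id1, 25.6% fewer than Id2, 43.4% fewer than Bmp4, 60.2% fewer than Id3 and 73.1% fewer than Smad6. Id2 thus went from above to below the middle of all genes and Bmp4 from above it to the KO median of 5. Id1, Id3 and Smad6 stayed above the middle. The window of Smad6 is the longest, with 168914 bp against 101160 to 107150 bp at the other genes. Among the 14483 genes with at least 5 WT peaks, the median KO to WT ratio was 0.786 (quartiles 0.6 and 1), and 2.29% of them had a ratio as low as that of Id2 or lower. The same share was 15.8% for Bmp4, 16.4% for Id1, 39% for Id3 and 68.3% for Smad6. Neighbouring genes share peaks, so these shares describe the lists and are not a test.

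A peak was counted as shared when the other library had a peak within a gap of 100 bp. At the 5 genes, 27 of 56 WT peaks had no KO peak (48.2%, exact binomial interval 34.7% to 62.0%), against 32.1% of all WT peaks. Of the 32 KO peaks, 5 had no WT peak (15.6%, 5.28% to 32.8%), against 24.6% of all KO peaks. In the same windows around all protein-coding genes, the shares were 30.1% in WT and 18.2% in Uhrf1 KO. There a peak counts once for each gene whose window holds it. The interval for WT lies above both background shares and the one for Uhrf1 KO includes both. By gene, the WT peaks without a partner were 8 of 11 at Id2, 7 of 10 at Bmp4, 7 of 15 at Id1, 3 of 10 at Id3 and 2 of 10 at Smad6. The KO peaks without a partner were 2 of 8 at Id1, 2 of 9 at Smad6, 1 of 7 at Id3 and none of the 5 at Bmp4 or the 3 at Id2. When neighbouring peaks were merged, 19 of 41 WT regions (46.3%, 30.7% to 62.6%) and 5 of 27 KO regions (18.5%, 6.3% to 38.1%) had no partner, against 35.1% and 28.6% of all regions, and both intervals then include the background. Shared WT peaks lay a median of 22 bp from their partner at the 5 genes and 19 bp over all shared WT peaks.

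**Figure D2:**
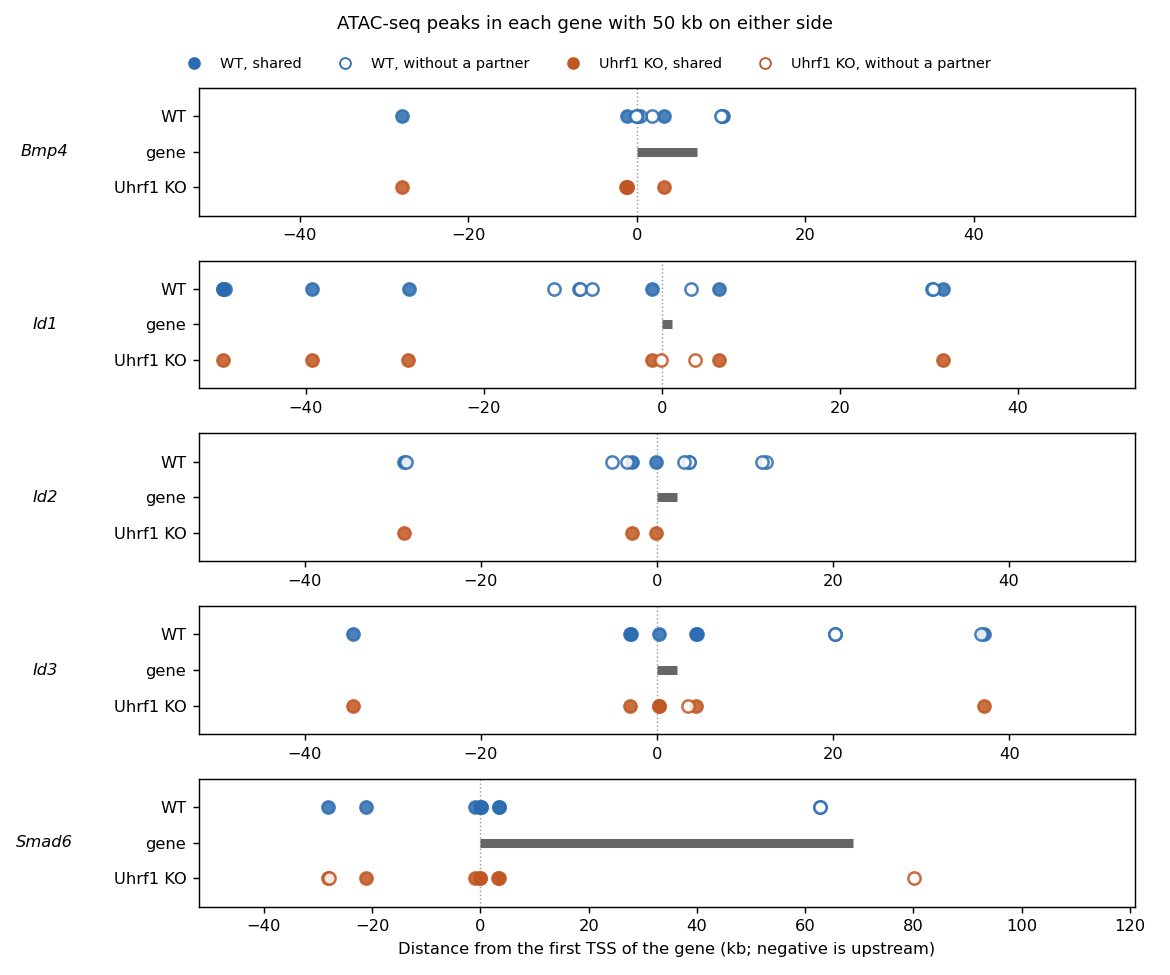
Peaks in each gene with 50 kb on either side, by distance from the first TSS in kb (x axis, negative is upstream), for WT (blue, upper row) and Uhrf1 KO (orange, lower row). Filled points have a partner in the other library, open points have none, and the grey bar is the gene. At Bmp4 and Id2 every KO point is filled.

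Summed over the 5 genes, the libraries held similar numbers near the starts and less similar ones farther out. Within 2 kb of any annotated TSS of the 5 genes there were 14 WT and 13 KO peaks, a ratio of 0.929 (0.402 to 2.13). From 2 to 10 kb there were 18 WT and 7 KO peaks (ratio 0.389, 0.137 to 0.976), and beyond 10 kb 24 WT and 12 KO peaks (0.5, 0.228 to 1.04). Around all protein-coding genes the ratios were 0.764, 0.839 and 0.822, so the genes described here were above the background near the start and below it farther out. All 3 of their intervals include the corresponding ratio of all genes and overlap one another, so a difference by distance is not shown. The sums within 2 kb hide differences between genes. There Smad6 had 6 WT and 5 KO peaks, Bmp4 5 and 3, Id1 and Id3 1 and 2 each, and Id2 1 and 1. WT peaks without a partner numbered 4 of 14 near the start, 11 of 18 from 2 to 10 kb and 12 of 24 beyond, against 25.2%, 32.9% and 31.4% around all genes. Of the peaks in the windows, 33 WT and 19 KO peaks lay nearer to a TSS of the gene itself than to that of any other gene.

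All 5 genes had a peak within 2 kb of a TSS in both lists, as did 57% of the 22380 protein-coding genes. Of all genes, 6.64% had such a peak in WT only, 1.73% in Uhrf1 KO only and 34.6% in neither. Within 1 kb, a limit chosen after the data were seen, the genes differed: Id2, Id3 and Smad6 had a peak in both lists, Bmp4 in WT only (as did 6.69% of all genes) and Id1 in Uhrf1 KO only (1.52%).

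**Figure D3:**
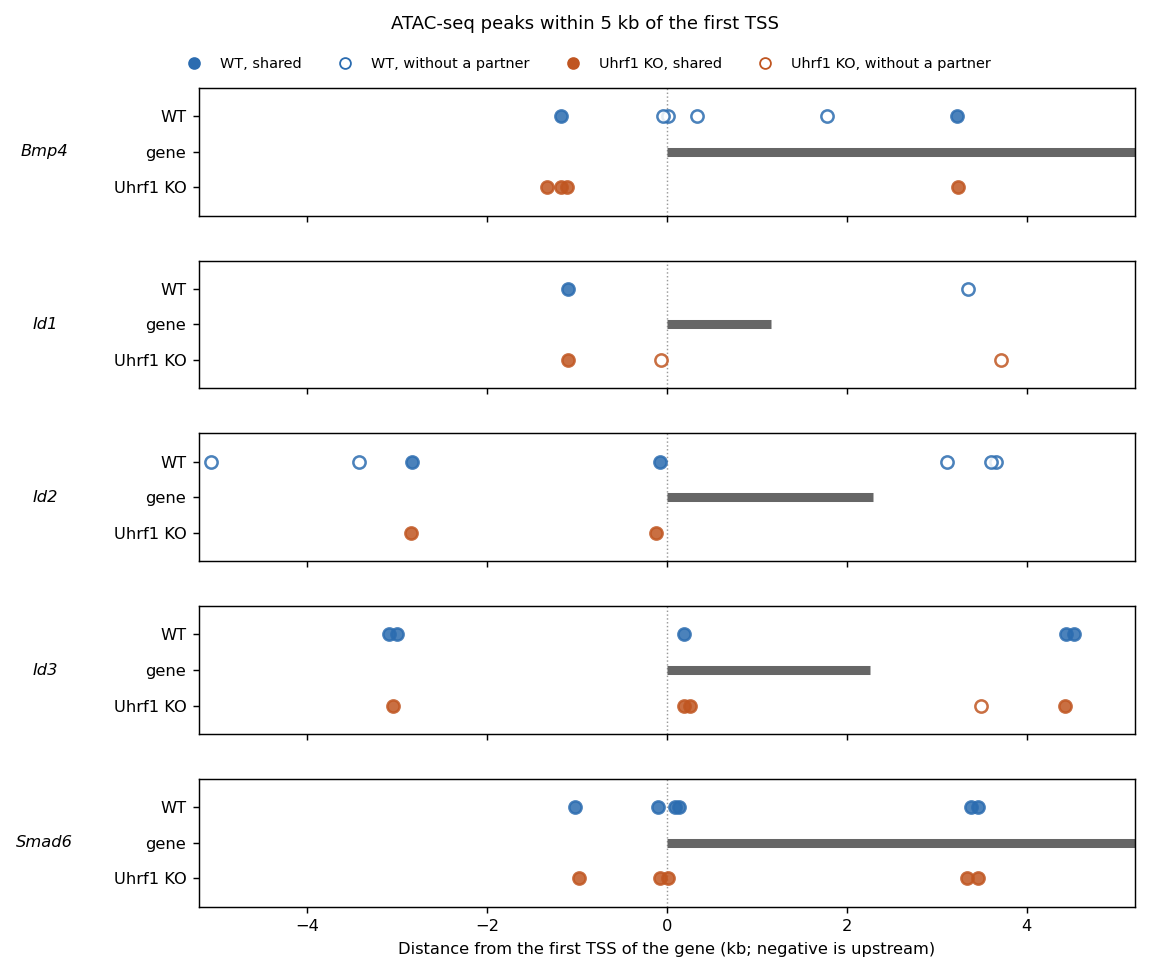
The same peaks within 5 kb of the first TSS (x axis in kb, negative is upstream). At the start of Bmp4 only WT points are seen, and at the start of Id1 only a KO point, while Id2, Id3 and Smad6 have points of both libraries there.

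In the next paragraphs, positions are in bp from the first TSS of the gene to the middle of a peak, and negative positions are upstream. Bmp4, the ligand, lies on the minus strand of chr14:47003195-47010344 (ENSMUSG00000021835.8). At its start, WT peaks stood at −41, 12 and 330, and a further one at 1781 in an intron, and none of these 4 had a KO partner. The KO peak nearest to the start stood at −1113, one of a group of 3 with those at −1174 and −1328, where WT had a peak at −1181. In the rank of the number in the peak name, explained below, the WT peaks at the start stood at 60.9%, 60.9% and 93.5%, among the later numbers of their chromosome. An intronic peak was listed in both libraries, at 3222 in WT and 3232 in Uhrf1 KO, 72 bp and 82 bp from the start of the antisense transcript Gm15222. The peak cannot be given to either gene alone. Downstream of Bmp4, WT peaks at 10041, 10111 and 10181 in an intron of the transcript Gm15217 had no partner. Far upstream both libraries had a peak, at −27881 in WT and −27906 in Uhrf1 KO.

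At Bmp4, 3 places thus had peaks in both lists, and the start itself had none in the KO list. The peaks without a partner were rich in C and G. In 200 bp centred on the peak, which reach beyond the 101 bp listed on both sides, the 3 downstream WT peaks had 70% to 73.5% GC with 14 to 18 CpGs, and those at −41, 12 and 330 had 67%, 65% and 58.5% with 8, 7 and 9 CpGs. The shared WT peak at −1181 had 48.5% GC and 2 CpGs, and the shared WT peak in the intron had 73.5% and 17, so GC content did not separate the peaks that were shared from those that were not.

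Id1, a target gene, lies on the plus strand of chr2:152561987-152563146 (ENSMUSG00000042745.9). The KO list had a peak at −68, with 53% GC and 5 CpGs in its window of 200 bp, where the WT list had none. The region upstream of Id1 that is known to respond to BMP was listed at nearly the same place in both, at −1099 in WT and −1101 in Uhrf1 KO. It holds GGCGCC, shown in capitals in the WT peak, chr2:152560838-152560938 on the plus strand: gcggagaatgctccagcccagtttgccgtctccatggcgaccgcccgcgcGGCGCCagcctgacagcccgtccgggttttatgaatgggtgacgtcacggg. GTCT does not follow it at a distance of 5 bases in this sequence. Between −12111 and −7881 WT had 4 peaks, at −12111, −9297, −9237 and −7881, and Uhrf1 KO had none. The peak at −12111 had 75% GC and 23 CpGs, while those at −9297 and −7881 held no CpG.

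Downstream of Id1 a WT peak at 3340 and a KO peak at 3709 had no partner, and the peaks at 6419 in WT and 6414 in Uhrf1 KO were shared. Many of the other peaks in this window belong to neighbouring genes. H13, a signal peptide peptidase, and Mcts2, an imprinted retrogene inside H13, accounted for the shared WT peaks at −49346, −49265 and −49094 and the KO peak at −49295. Further shared peaks lay in H13 at −39312 in both libraries and at −28395 in WT and −28455 in Uhrf1 KO. On the other side, WT peaks at 30382 and 30432 had no partner, and a shared peak at 31567 in WT and 31589 in Uhrf1 KO lay in an intron of Bcl2l1, which encodes a survival protein. Of the 15 WT peaks, 6 were nearest to the TSS of Id1, and 5 of these had no partner; the one that had was the peak at −1099.

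Id2, a target gene on the minus strand of chr12:25778666-25780957 (ENSMUSG00000020644.8), had no other gene's TSS nearer to any of its peaks. All 3 KO peaks had a WT partner. These stood at the start (−81 in WT, −118 in Uhrf1 KO), upstream (−2836 and −2846) and far upstream (−28709 and −28687). The 8 WT peaks without a partner were those at −28485, −5062 and −3422 upstream and at 3111, 3601, 3656, 11991 and 12346 downstream of the gene. In WT the peaks therefore flanked Id2 on both sides, and in Uhrf1 KO none was listed downstream of its start. The start peak and the one at −2836 were among the first numbers of their chromosome in WT, with name ranks of 9.9% and 10.3%. The 8 without a partner had name ranks from 47.8% to 92.2%.

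Id3, a target gene on the plus strand of chr4:135699412-135701670 (ENSMUSG00000007872.3), had its near peaks in both libraries. In the exon after its first TSS stood a WT peak at 192 and KO peaks at 193 and 252, and no listed peak contained the TSS itself. Upstream, WT had peaks at −3084 and −2999 and Uhrf1 KO had one at −3043. Downstream of the gene, WT had peaks at 4432 and 4525 and Uhrf1 KO had one at 4423, so a pair of WT peaks faced a single KO peak on both sides. A KO peak at 3493 had no partner, with 46.5% GC and 3 CpGs. All 3 WT peaks without a partner, at 20189, 20245 and 36739, were nearest to a TSS of E2f2, a transcription factor of the cell cycle, which also held a shared peak at 37142 in WT and 37078 in Uhrf1 KO. The shared peak far upstream, at −34548 in WT and −34561 in Uhrf1 KO, is uncertain, because the central 31 bp of the WT peak occur at 26345 places in the genome and those of the KO peak at 3, and 1 alignment per read was reported. The central 31 bp of the other 55 WT and 31 KO peaks at the 5 genes occur at 1 place.

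Smad6, the inhibitor, lies on the minus strand of chr9:63800953-63869866 (ENSMUSG00000036867.5) and had the KO to WT ratio nearest to 1 of the 5 genes. Around its start, WT peaks stood at −1023, −102, 89 and 139 and KO peaks at −975, −81 and 10, all shared. In the first part of the gene, intronic peaks at 3377 and 3462 in WT and at 3339 and 3458 in Uhrf1 KO were shared. Far upstream the peaks at −21056 in WT and −21075 in Uhrf1 KO were shared, as were those at −28155 and −28172 in the transcript 1110036E04Rik. Near the last of these, the KO peak at −27881 had no partner, and neither had the KO peak at 80165 beyond the end of the gene. The WT peaks without a partner were a pair deep in the gene, at 62709 and 62772.

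**Figure D4:**
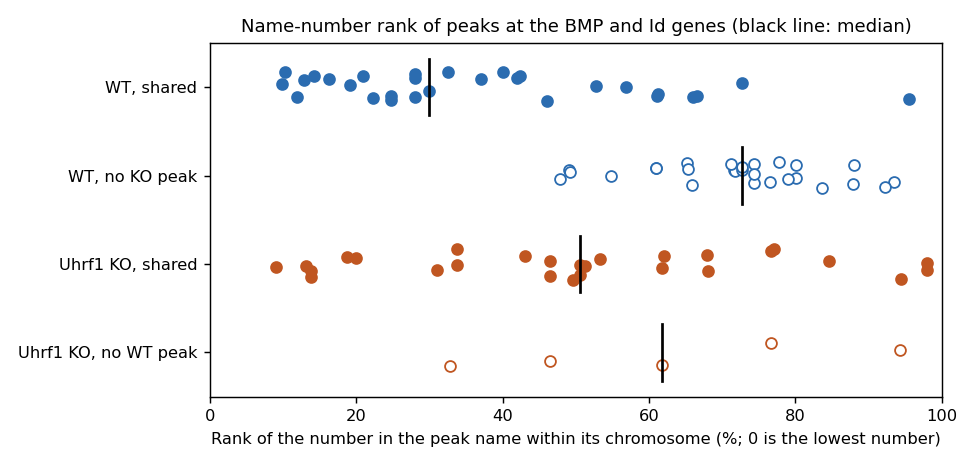
Rank of the number in the peak name within its chromosome, in percent (x axis, 0 is the lowest number), for the 29 shared and 27 unshared WT peaks (blue) and the 27 shared and 5 unshared KO peaks (orange) of the 5 genes. Black lines are medians, which are 30 and 72.7 in WT and 50.5 and 61.8 in Uhrf1 KO.

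Each peak name ends in a number whose meaning is not given in the sources used here, and which was ranked within the chromosome. In both lists, peaks with low numbers nearly always had a partner. The 10% of WT peaks with the lowest numbers lacked a partner in 0.334% of cases and the 10% with the highest in 65.7%, and the shares in Uhrf1 KO were 0.715% and 53.5%. WT peaks at the 5 genes had a median rank of 60.9%, with 30% for shared and 72.7% for unshared ones. With each list cut into classes of 10% of the ranks, the shares of all WT peaks in the same classes would give 19.9 unshared peaks among the 56, against the 27 found. For Uhrf1 KO that number was 8.3 of 32, against 5. Among the 24 WT peaks with ranks in the lower 50%, 3 had no KO peak (12.5%), close to the 10.8% of all WT peaks with such ranks, so the larger share over all ranks rested on peaks with late numbers.

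The paired element shown at the outset was found 447 times in the 2717 Mb of the genome, or 0.165 times per Mb, and 6 times in the 0.582 Mb around the 5 genes, or 10.3 times per Mb. Most of those at Id genes lay beside listed peaks and not inside them. Of the 447 matches, 36 lay inside a listed peak of either library, and of the 6 at Id genes 1 did, the Id3 element downstream of the gene, which lay inside a WT peak and 10 bp from a KO peak. In a window of 200 bp centred on each peak, which adds sequence on both sides of the listed 101 bp, 46 of the 447 (10.3%) and 4 of the 6 (66.7%) were found. In distance from the nearest TSS of the gene, the Id2 element at −2769 lay 9 bp from a WT and 19 bp from a KO peak, inside the windows of both. The Id2 element at 3041 lay 12 bp from the WT peak at 3111 and 3101 bp from the nearest KO peak. The upstream Id3 element at −2950 overlapped the edge of a WT peak and lay 35 bp from a KO peak, whose window missed it by 1 base. The Id1 element at 3227 lay 55 bp from the WT peak at 3340, whose window missed it by 20 bases, and 424 bp from the nearest KO peak. The intronic Id3 element was 1053 bp from the nearest WT and 993 bp from the nearest KO peak. Bmp4 and Smad6 had no element in their windows. Neither the number of elements nor their distance to peaks was tested.

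Counted by peaks, 5 of 56 WT peaks (8.93%, exact interval 2.96% to 19.6%) and 2 of 32 KO peaks (6.25%, 0.766% to 20.8%) held the paired element in their window of 200 bp, against 47 of all WT peaks (0.0654%) and 30 of all KO peaks (0.0487%). The neighbouring WT peaks at 4432 and 4525 downstream of Id3 held the same element, which the interval treats as independent. Within the peaks as listed, 1 of 56 WT peaks and 0 of 32 KO peaks held it, against 29 and 17 of all peaks, so the first counts rest on sequence beside the peaks. In the same window, GGCGCC alone was in 15 of 56 WT peaks (26.8%, 15.8% to 40.3%), against 13.8% of all, and in 6 of 32 KO peaks (18.8%, 7.21% to 36.4%), against 11% of all. These 15 peaks were spread over all 5 genes. Within the peaks as listed, GGCGCC was in 11 WT peaks (19.6%, 10.2% to 32.4%), against 7.67% of all, and in 4 KO peaks (12.5%, 3.51% to 29%), against 5.87%. The palindrome GTCTAGAC, bound by Smad3 and Smad4, was found in these windows only at the start of Smad6, for 1 WT and 2 KO peaks, against 0.164% and 0.174% of all peaks. Within the peaks as listed it was in 0 WT peaks and 1 KO peak. The octamer ATGCAAAT, bound by Oct4, was in none of the 56 WT or 32 KO peaks (upper limits 6.38% and 10.9%) and in 1.58% and 1.94% of all peaks, so its rarity cannot be told from the background at this number of peaks. The Stat3 motif TTCCNGGAA was in the window of 1 WT peak, at 12346 downstream of Id2, outside the peak as listed, and in that of no KO peak, against 0.644% and 0.691% of all. Motifs were searched on both strands, the paired element includes GGCGCC, and a match describes the letters and not binding.

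In base composition the peaks at the 5 genes were close to all peaks. Median GC content in the window of 200 bp was 61.2% in WT (48.5% to 79.5%), against 59.5% over all WT peaks, and 58.2% in Uhrf1 KO (45.5% to 80%), against 56.5%. The median number of CpGs was 10.5 against 9 in WT and 7 against 6 in Uhrf1 KO. WT peaks without a partner had a median GC content of 61% and shared ones 62.5%, against 58% and 60.5% over all peaks. The 5 KO peaks without a partner had a median of 53% and the shared ones 58.5%, against 49.5% and 60% over all peaks. The medians of unshared peaks were thus the lower ones in both lists, by little at these genes in WT.

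Among 35 other genes of the BMP pathway, grouped by role, 31 had a peak within 2 kb of a TSS in both lists, 3 in WT only, none in Uhrf1 KO only and 1 in neither. The 3 were Bmp7, a ligand with 8 WT and 3 KO peaks in its window, none of them shared, Smad5, a signal-carrying Smad with 7 WT peaks and no KO peak, and Chrd (chordin), which binds and blocks BMP ligands and had 16 WT and 10 KO peaks. The gene without a promoter peak was the ligand gene Bmp5, with 1 WT and 2 KO peaks in its window. Of all protein-coding genes, 57% had a promoter peak in both lists, 6.64% in WT only, 1.73% in Uhrf1 KO only and 34.6% in neither. Fewer KO than WT peaks were found at 25 of the 35 pathway genes, more at 6 and as many at 4. Of all protein-coding genes, 56.7% had fewer KO than WT peaks. Together the 35 pathway genes had 340 WT and 259 KO peaks, a ratio of 0.762 (0.646 to 0.898). Of these, 32.9% of the WT peaks (28% to 38.2%) and 19.7% of the KO peaks (15% to 25.1%) had no partner. The WT share was near that of all peaks and below the 48.2% at the 5 genes, and the intervals of both shares overlap.

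**Figure D5:**
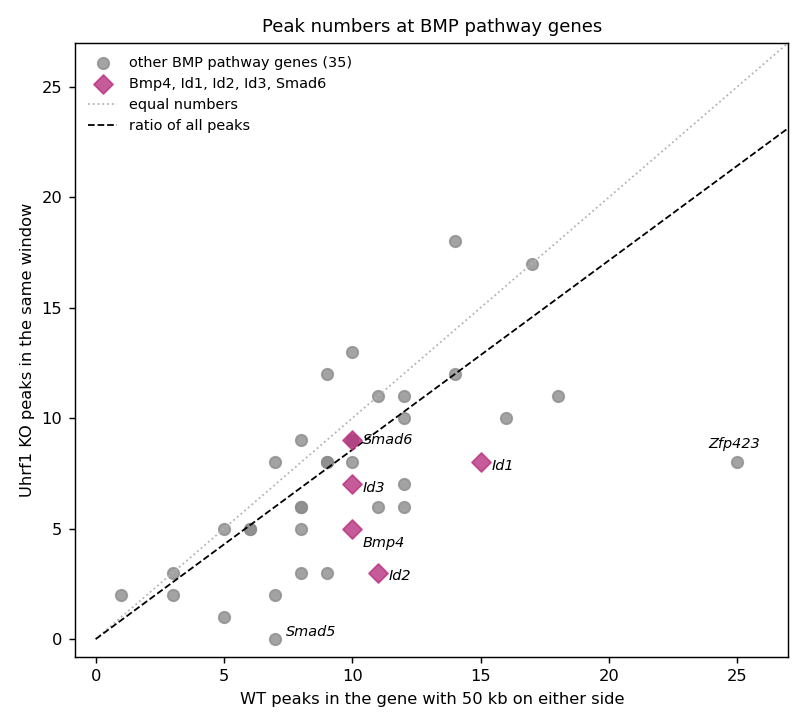
KO peaks (y axis) against WT peaks (x axis) in the gene with 50 kb on either side, for Bmp4, Id1, Id2, Id3 and Smad6 (diamonds) and 35 other BMP pathway genes (grey circles). The dotted line marks equal numbers and the dashed line the ratio of all peaks, 0.857. Smad6 lies just above the dashed line and the other 4 diamonds lie below it.

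By role, the 8 ligand genes had 59 WT and 50 KO peaks, the 7 receptor genes 76 and 71, the 5 signalling Smads and partners 64 and 30, the 9 inhibitors 96 and 76 and the 6 targets 45 and 32. The receptor genes thus differed least between the libraries, and all 7 had a promoter peak in both. The genes with the most WT peaks for their role were the ligand gene Gdf6 (11 WT, 6 KO), the receptor genes Bmpr1a (14 and 12) and Bmpr1b (14 and 18), the Smad partner Zfp423 (25 and 8), the ubiquitin ligase Smurf2 (18 and 11), which marks receptor-regulated Smads for breakdown, and the target Dlx5 (11 and 11). Zfp423 alone gave 25 of the 64 WT peaks of its role. The paired element occurred 4 times in the windows of these 35 genes, at Grem1, 31 bp from a WT peak and inside its window, and at Id4, Msx1 and Msx2, outside the window of any peak.

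For each of the 5 genes, the most similar of the 35 was found by the Euclidean distance over the numbers of shared WT, shared KO, WT-only and KO-only peaks, which come from 2 libraries. Smad6 was most like Bmp2 (distance 1.0) and Id3 most like Rgmb, a BMP co-receptor (1.41). Id1 was most like Smad9 (2.65), Bmp4 most like Gdf6 (3.74) and Id2 most like Smad4 (4.24). Id2 thus had the least similar partner of the 5.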

How the data were processed

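ATAC-seq of 1 WT and 1 Uhrf1 KO library was analysed. The authors mapped reads to mm9 with Bowtie2 2.1.0, reporting 1 alignment per read, and kept fragments below mononucleosome size. The submitters' processing notes also name HOMER 4.9.1, whose role, like the peak threshold and any shift of read ends to the Tn5 cut, is not given in the sources used here. The deposited files hold peak positions, names and a score, which is 1 for every peak. They hold no depth, and peaks absent from a list may have lain under its threshold.

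Peaks were placed on GENCODE vM1, whose build is mm9 (0 peaks lay past a chromosome end), with Python 3.11.15, numpy 2.4.6, pandas 2.3.3, scipy 1.17.1, numba 0.67.0 and matplotlib 3.10.9. A TSS is the start of any annotated transcript. Numbers were given exact Poisson intervals, and shares and ratios exact binomial (Clopper-Pearson) intervals, all at 95%. The RefSeq tables at hand were on another build and were not used. Scripts were tested on simulated peaks.

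The 5 genes and the gene lists were chosen with earlier results of these data known. All peaks of the 5 genes were named, as were BMP pathway genes with a promoter peak in 1 list or neither, the gene with the most WT peaks per role (ties kept), neighbours nearer to a peak, and the most similar gene.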

Additional observations from a re-analysis of the deposited data

How the results depend on the processing

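With 1 of the 5 genes left out, the KO to WT ratio of peak numbers ran from 0.5 (without Smad6) to 0.644 (without Id2). These values lay below the 0.857 of the whole lists. Other ways of counting gave 0.556 (10 kb on each side) to 0.659 (neighbouring peaks merged). When merged, the whole lists held 54492 WT and 49527 KO regions. For the remaining ways of counting, the ratio of the whole lists was not counted, so these values cannot be set against 0.857. Peak numbers moved with the window: a window of 10 kb on each side gave 36 WT and 20 KO peaks, the lower name numbers alone gave 24 and 15, and peaks nearest to a TSS of the gene itself 33 and 19. The share of WT peaks without a partner fell to 12.5% for the lower name numbers, set against the whole KO list, near the 10.8% of all such WT peaks. For KO peaks with lower name numbers the share was 13.3% (2 of 15), above the 8.69% of all such KO peaks. With all name numbers the KO share lay below that of all KO peaks (15.6% against 24.6%). In the windows of all protein-coding genes the KO share was 18.2%, nearer to the 15.6%. The share of KO peaks without a partner rose to 34.4% when at least 50% of both peaks had to be shared. The share of all KO peaks under that rule was not counted. The 34.4% therefore cannot be set against the 24.6% of all KO peaks, which holds for a gap of 100 bp. Within 1 kb in place of 2 kb of a TSS lay 14.3% of WT and 21.9% of KO peaks, in place of 25% and 40.6%, and 2 other BMP pathway genes had no promoter peak, in place of 1. For results over the 5 genes or the pathway list, 30 alternative values were close to the reported ones and 11 moved. For single genes, 20 were close and 20 moved, and of 20 pairs of a gene and a setting, 16 had fewer KO than WT peaks, 2 as many (Id3, with 10 kb on each side and by nearest TSS) and 2 more (Smad6, 6 WT and 7 KO regions when merged, and Bmp4, 2 WT and 3 KO peaks with lower name numbers). No paired analysis was possible because there was 1 library per genotype, and for the same reason no replicate could be left out. Peak lists without read numbers allow no error for a single peak, and a peak missing from a list does not show closed chromatin. The 1 kb limit for the 5 genes, the search of the whole genome for the paired element and the motif counts within the peaks as listed were chosen after the data were seen.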

Other observations

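2 other signalling pathways that act on ESCs were counted in the same windows. The 5 genes of the LIF and Stat3 pathway (Lifr, Il6st, Jak1, Stat3 and Socs3) had 55 WT and 35 KO peaks, a ratio of 0.636 (0.404 to 0.99), and 40% of their WT peaks (27% to 54.1%) and 11.4% of their KO peaks had no partner. Over all peaks these shares were 32.1% in WT and 24.6% in Uhrf1 KO. In the windows of all protein-coding genes they were 30.1% and 18.2%. Stat3 itself had 17 WT peaks, of which 9 had no partner, and 10 KO peaks, all shared. Socs3, its feedback inhibitor, had 18 WT peaks, of which 9 had no partner, and 9 KO peaks, all shared. Jak1 had 8 WT peaks, 4 without a partner, and 4 KO peaks, 1 without. At the receptor genes only KO peaks lacked a partner, in numbers too small to set against the share of all KO peaks. Lifr had 9 WT peaks, all shared, and 8 KO peaks, 1 without a partner, and Il6st had 3 WT peaks, all shared, and 4 KO peaks, 2 without. The 6 genes of Nodal signalling had 57 WT and 51 KO peaks, a ratio of 0.895 (0.601 to 1.33), and 33.3% of their WT peaks (21.4% to 47.1%) had no partner. Lefty1 and Lefty2, which encode Nodal inhibitors, had a promoter peak in WT only, as did 6.64% of all protein-coding genes. The intervals of both ratios overlap that of Bmp4, Id1, Id2, Id3 and Smad6 together (0.358 to 0.898), and the pathways were not compared by a test.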
